A study of Mus musculus with 6 samples.

Results

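The genes described here are Stil and 7 other genes of centriole duplication, Plk4, Cenpj, Sass6, Cep63, Cep135, Cep152 and Cep192, as measured by RNA sequencing of the brain of adult male mice. They were taken by gene symbol from the 43346 rows of the deposited expression table, and all 8 were found and had enough reads to be among the 15127 genes tested. The set was selected on the raw counts of Kdm5c deficient and wild-type mice, around a low Stil level in deficient brain. The genotype difference of its genes is therefore given as a description. Where a gene of the set is said to pass the test's threshold or not, nothing is read from it. The tested animals were 3 adult males deficient for Kdm5c, an X-linked gene for a demethylase of histone H3 lysine 4, and their littermate controls were 3 adult wild-type males. Both genotypes share a mixed C57BL/6 and 129 background, since a C57BL/6 female heterozygous for the deficiency was bred to a wild-type 129 male. The labels do not describe the allele, and the brain region taken is not given in the sources used here.

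Centrioles are the barrel-shaped microtubule structures at the core of the centrosome and at the base of cilia. They are copied a single time in each cell cycle. The kinase Plk4 is brought to the wall of the parent centriole by Cep152, Cep192 and Cep63, where it phosphorylates Stil. Stil then recruits Sass6, the building block of the cartwheel that starts the new centriole, while Cenpj and Cep135 join the cartwheel to its microtubules. Human mutations in several of these genes cause primary microcephaly, and mouse embryos without Stil fail to respond to Hedgehog signals. Most cells of the adult brain have left the cell cycle, and dividing cells are largely glial precursors and the neural progenitors of restricted niches.

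The libraries held 20221675 to 24555412 counts, with scaling factors of 0.986 to 1.011. Kdm5c itself had 73.9, 65.5 and 78.9 CPM (read counts relative to the scaled library total, the usual depth-adjusted unit) in deficient mice and 77.6, 82.8 and 84.0 CPM in wild-type mice, and the genotypes overlapped. Because those counts cover the whole gene, they do not check the genotype labels. Over all genes tested, 4.93% had an adjusted p under the threshold of 0.05 by the quasi-likelihood test of edgeR, 2.45% being higher and 2.48% lower in deficient brain. Deficient mouse 2 stood apart in its cerebellar granule cell markers. Their summed level over 6 genes was 784, 108 and 594 CPM in deficient mice and 846, 891 and 1005 CPM in wild-type mice. It also stood apart over all tested genes, at -36.2 on their main axis of variation, which held 48.4% of the variance. Deficient mice 1 and 3 were at -4.4 and -16.4 on this axis and the wild-type mice at 16.8 to 23. The labels do not say that mice of a genotype came from separate litters or days, so the errors below cover the spread between these animals only.

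Stil, the scaffold of the growing centriole, was the clear fall of the set. It had 23, 23 and 24 reads in the deficient mice, against 47, 50 and 54 reads in the wild-type mice. Scaled to the libraries this was 1.08, 0.965 and 1.10 CPM in deficient mice and 1.90, 2.45 and 2.36 CPM in wild-type mice. Every deficient mouse lay below every wild-type mouse. The deficient mice lay closer to each other than the wild-type mice did, and closer than counting error at 23 reads, so their spread does not show how alike they were. The mean was 1.05 ± 0.0747 CPM in deficient and 2.24 ± 0.293 CPM in wild-type brain (SD, n = 3 each), a ratio of 0.469. The log2 fold change, deficient over wild type, was -1.08 ± 0.19 (SE). By this value Stil stood at rank 50 from the lowest of all tested genes, of which 0.502% were at least 2-fold lower. Written as wild type over deficient, the value for Stil in the authors' deposited table was 0.47 ± 0.14 (SE). Those of the other 7 genes in the authors' deposited table ran from 0.13 to 0.38. The authors' values are smaller in size than those given here, and the file headers do not say whether they were shrunken.

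Stil counts were low, and counting error alone is wide at this depth. The SD of the deficient mice and the SE of the log2 fold change given above are smaller than counting error alone would give. They therefore understate the uncertainty. The 95% exact Poisson interval was 14.6 to 34.5 reads for a deficient mouse with 23 reads and 34.5 to 62.5 reads for wild-type mouse 1. For deficient mouse 3, with 24 reads, it was 15.4 to 35.7 reads, which overlaps that of wild-type mouse 1. The intervals of the other deficient mice end at 34.5 reads, where that of wild-type mouse 1 begins. These are raw reads without adjustment for depth. Wild-type mouse 1 had the largest library, with 24555412 counts, so at equal depth all deficient intervals reach further into its own. The intervals of the other wild-type mice began at 37.1 and 40.6 reads, and all of them cover counting error only. Without deficient mouse 2, the animal with few cerebellar markers, the log2 fold change of Stil was -1.02. It ranged from -1.19 to -1.01 over the fits that left out a mouse.

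**Figure D1:**
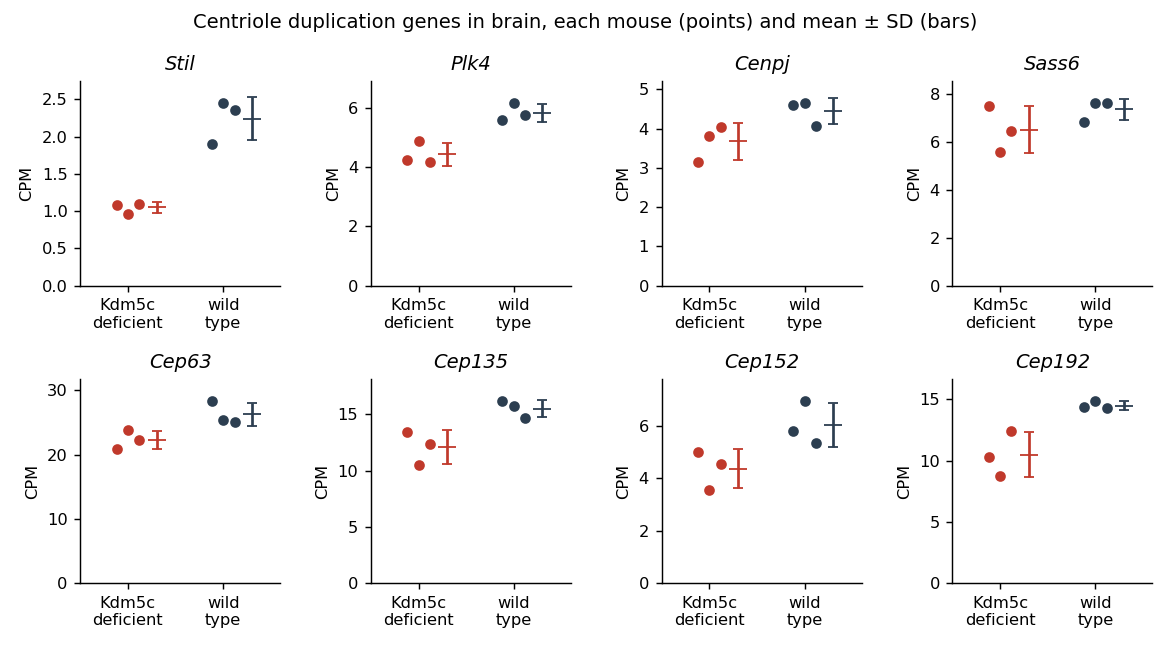
Level of each of the 8 genes in brain, in CPM (y axis from 0), for the 3 Kdm5c deficient mice (red, left) and the 3 wild-type mice (dark, right). Points are mice and bars are the mean with the SD; for Stil the deficient mice sit between 0.965 and 1.10 CPM and the wild-type mice between 1.90 and 2.45 CPM.

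The gene lies on the forward strand of chromosome 4 at 115000159 to 115043196 (GRCm38), with 6 annotated transcripts, the longest of 5368 nt. No exon of another gene annotated in GENCODE M21 overlaps its exons on either strand. The annotation behind the deposited counts is not given, so sharing of reads could not be checked there. The bases just before its start are shown because a histone H3 lysine 4 demethylase acts at promoters, and those of Plk4 are set beside them because Plk4 encodes the kinase that acts on Stil. Both are the 250 bases upstream of the RefSeq start on GRCm38.p6, forward strand, chr4:114999868-115000117 for Stil and chr3:40799701-40799950 for Plk4. Capitals mark matches, on either strand, to the CCAAT box (CCAAT), the E2F core (GCGGGAA), the cell cycle homology region CHR (TTTGAA or TTCGAA) and the E-box (CACGTG).
Stil: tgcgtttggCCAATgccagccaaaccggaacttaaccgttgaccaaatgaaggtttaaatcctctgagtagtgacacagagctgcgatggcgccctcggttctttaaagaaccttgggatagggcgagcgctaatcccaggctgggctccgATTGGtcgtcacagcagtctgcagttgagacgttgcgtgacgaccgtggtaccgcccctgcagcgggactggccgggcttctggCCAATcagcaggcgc
Plk4: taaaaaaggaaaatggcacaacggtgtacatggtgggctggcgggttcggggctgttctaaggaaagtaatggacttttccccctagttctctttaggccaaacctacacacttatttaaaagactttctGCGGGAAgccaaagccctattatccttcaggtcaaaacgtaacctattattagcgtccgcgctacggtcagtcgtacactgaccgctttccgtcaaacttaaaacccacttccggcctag
The Stil window held 3 CCAAT boxes, the first base of each 241, 99 and 15 bases before the start, and none of the other motifs. Distances here are from the RefSeq start. That start lies upstream of the GENCODE start given above for Stil, and of the GENCODE start of Plk4 at 40800019. Of 32851 RefSeq promoter windows of the same length, 33.8% held at least 1 CCAAT box and 2.79% held at least 3. The Plk4 window held a single E2F core, 120 bases before the start, a motif found in 3.82% of all windows. Windows were at hand for 7 of the 8 genes, and 3 of them held a CCAAT box, 2 an E2F core, 2 a CHR and 1 an E-box. The CHR was found in 17.1% and the E-box in 6.02% of all windows. Cep152, which like Stil held 3 CCAAT boxes, also held an E2F core and a CHR. A match describes the letters of the window and does not show binding.

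The other 7 genes also had lower mean levels in deficient brain, by less than Stil. Their log2 fold changes ran from -0.47 to -0.18, with a median of -0.36, beside a median of 0.00, 49.7% of genes below 0 and a 5th to 95th percentile of -0.46 to 0.41 over all tested genes. Of the 8 genes, Stil alone passed the threshold of edgeR's test, beside 2.48% called lower over all genes, and nothing is read from that count because the set was built on this contrast. The count also moved with the setting: Stil was not past the threshold without deficient mouse 3 or without wild-type mouse 1, 2 or 3. Cep192 was past it with DESeq2 and with no low-count filter, and Cep135 without deficient mouse 1, which makes 3 of 105 values for the 7 other genes over all alternatives. In 7 of the 8 genes no deficient mouse overlapped a wild-type mouse, beside 16.0% of all tested genes with that order, and this too is a description of a chosen set. The mean log2 deviation of the 7 genes from their own average was -0.14, -0.26 and -0.11 in the deficient animals, against 0.17, 0.23 and 0.11 in the wild-type animals. Deficient mouse 2 was lowest in this measure, as it was for Stil.

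**Figure D2:**
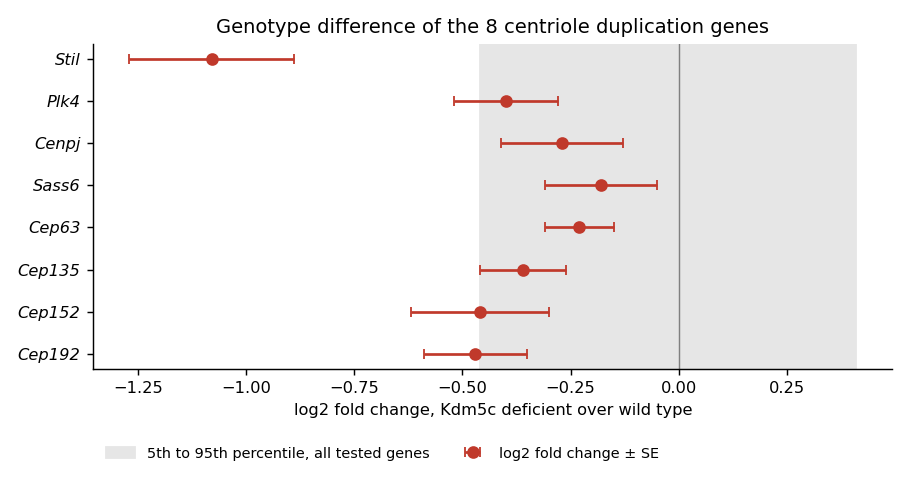
Log2 fold change (x axis, Kdm5c deficient over wild type) of the 8 genes, as points with a standard error derived from edgeR's F statistic. The grey band spans the 5th to 95th percentile of all tested genes, -0.46 to 0.41; Stil at -1.08 lies outside it and Cep152 and Cep192 lie at its lower edge.

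Among the genes that bring Plk4 to the parent centriole, Cep192 and Cep152 had log2 fold changes that were equal within their errors, and that of Cep63 was nearer to 0. Cep192, a scaffold for Plk4 and for the pericentriolar material, had 10.3, 8.77 and 12.4 CPM in deficient mice and 14.4, 14.9 and 14.3 CPM in wild-type mice. Its log2 fold change was -0.47 ± 0.12 (SE), and the deficient mice varied more than the wild-type mice, with SDs of 1.81 and 0.349 CPM. Cep152, the other Plk4 scaffold, had 4.98, 3.57 and 4.56 CPM in deficient mice and 5.79, 6.95 and 5.34 CPM in wild-type mice. Its log2 fold change was -0.46 ± 0.16 (SE), and its highest deficient mouse lay just under its lowest wild-type mouse. Cep63, which works in a complex with Cep152, had 20.9, 23.8 and 22.3 CPM in deficient mice and 28.4, 25.4 and 25.1 CPM in wild-type mice, a log2 fold change of -0.23 ± 0.08 (SE). The exons of Cep63 overlap the antisense gene Anapc13, and without a stated use of strand their reads cannot be told apart.

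Plk4, the kinase that sets the number of new centrioles, had 90, 116 and 91 reads in deficient mice and 138, 126 and 132 reads in wild-type mice. On the CPM scale this was 4.23, 4.87 and 4.19 CPM in deficient mice, against 5.59, 6.17 and 5.77 CPM in wild-type mice, without overlap. The log2 fold change was -0.40 ± 0.12 (SE), smaller in size than that of Stil. For each read of Plk4 there were 0.256, 0.198 and 0.264 reads of Stil in deficient mice, against 0.341, 0.397 and 0.409 reads in wild-type mice. This ratio is taken within a library and does not depend on scaling. It was lower in every deficient mouse than in any wild-type mouse, as was the ratio of Stil to each other gene of the set. Because the set was chosen around the low Stil level in these counts, the ratio is a description and adds no support.

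In the cartwheel and the centriole wall, the log2 fold change of Cep135 was farther from 0 than those of Cenpj and Sass6. Cep135, which ties the cartwheel to the microtubule wall, had 13.4, 10.5 and 12.4 CPM in deficient mice and 16.2, 15.7 and 14.7 CPM in wild-type mice, a log2 fold change of -0.36 ± 0.10 (SE). Its deficient mice all lay below the wild-type mice. Cenpj, a tubulin-binding protein that controls centriole length, had 3.15, 3.82 and 4.05 CPM in deficient mice and 4.61, 4.65 and 4.07 CPM in wild-type mice. Deficient mouse 3 and wild-type mouse 3 were nearly level, and the log2 fold change was -0.27 ± 0.14 (SE). Sass6, the ring-forming cartwheel protein that Stil recruits, was the single gene whose genotypes overlapped. It had 7.52, 5.58 and 6.45 CPM in deficient mice and 6.84, 7.63 and 7.61 CPM in wild-type mice, with a log2 fold change of -0.18 ± 0.13 (SE). Sass6 shares exon positions with Trmt13 and Gm42893 on the other strand, so its reads are uncertain to that extent.

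Relative to length, Stil was the least abundant of the 8 transcripts and Cep63 the most abundant in both genotypes. Levels per length (RPKM) were taken as the CPM divided by the length, in kilobases, of the longest annotated transcript. Stil was at 0.196 ± 0.0139 RPKM in deficient and 0.417 ± 0.0545 RPKM in wild-type brain (SD, n = 3 each). Cep63 was at 3.81 ± 0.249 RPKM in deficient and 4.49 ± 0.309 RPKM in wild-type brain. In wild-type mice the order of levels was Cep63, Cep135 at 2.75 ± 0.137 RPKM, Cep192 at 1.80 ± 0.0432 RPKM, Sass6 at 1.70 ± 0.104 RPKM, Plk4 at 1.68 ± 0.0850 RPKM, Cep152 at 1.04 ± 0.144 RPKM, Cenpj at 0.934 ± 0.0686 RPKM and Stil. Cep192, Sass6 and Plk4 overlapped in their ranges over the wild-type mice, as did Cep152 and Cenpj, so the order within each of these groups is not resolved. Stil did not overlap the next gene: its highest wild-type mouse was at 0.456 RPKM and the lowest of Cenpj was at 0.855 RPKM. With the union of annotated exons as the length, Stil was still lowest in wild-type mice at 0.386 RPKM and Cep63 still highest, at 2.74 RPKM, but the order between them changed. Next came Cep135 at 2.16, Sass6 at 1.20, Cep192 at 1.16, Cep152 at 1.04, Cenpj at 0.912 and Plk4 at 0.852 RPKM.

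The set has longer and more AT-rich transcripts than the median tested gene, and fold changes differed by transcript length in these libraries. The longest transcript had a median of 5498.5 nt over the 8 genes, against 3405 nt over every tested gene. GC content had a median of 44.6% over the 8 genes and 49.9% over every tested gene. All tested genes were split by length into 3 classes, and those from 4290 nt up had a background of their own. Their median log2 fold change was -0.03, 58.6% were below 0, and 4.44% were called lower and 1.47% higher. This class holds every gene of the set but Plk4, at 3479 nt. In the class up to 2648 nt the median was 0.03 and 41.7% were below 0, with 0.83% called lower and 3.34% higher. With offsets for length and GC content in each mouse, an alternative chosen after seeing the data, Stil had a log2 fold change of -1.04 and the 7 other genes a median of -0.32.

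Dividing cells are the main known users of these genes, and genes of the cell division programme were measured beside them. Of 22 tested mitosis genes none passed the threshold, beside 4.93% over all tested genes, 19 had values below 0 and the median log2 fold change was -0.18. Their summed level was 101, 82.9 and 89.0 CPM in deficient mice and 99.3, 111 and 99.8 CPM in wild-type mice, with overlap between the genotypes. The 4 with the smallest p-values were Kif20a (a mitotic kinesin), Birc5 (survivin), Prc1 (a bundler of spindle microtubules) and Ccnb2 (a mitotic cyclin), at log2 fold changes of -0.80 ± 0.31, -0.66 ± 0.27, -0.43 ± 0.18 and -0.58 ± 0.26 (SE), with adjusted p from 0.154 to 0.213 by edgeR. Mki67, a marker of cycling cells named outside the rule, averaged 2.32 ± 0.234 CPM in deficient and 2.33 ± 0.415 CPM in wild-type brain (SD, n = 3 each). This single gene does not stand for the list, and whether the number of cycling cells differed was not tested. No mitosis gene of the list was at 0 in any mouse. In RNA from whole tissue, fewer cells of a type and less RNA per cell cannot be told apart.

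Genes of DNA replication were called in both directions. Of 17 tested genes of the G1 to S transition 1 fell and 1 rose, and the median was -0.11. Over all tested genes 2.48% were called lower and 2.45% higher. Mcm2, a subunit of the replicative helicase, fell to 4.55 ± 0.336 CPM in deficient brain, against 7.23 ± 0.877 CPM in wild-type brain (SD, n = 3 each; log2 fold change -0.66 ± 0.13, SE; adjusted p = 0.0277 by edgeR). E2f1, a transcription factor that drives entry into S phase, rose, with 17.4, 22.0 and 18.4 CPM in deficient mice and 13.6, 12.6 and 13.3 CPM in wild-type mice (log2 fold change 0.55 ± 0.10, SE; adjusted p = 0.0242 by edgeR). Mcm5 and Ccne2, at -0.21 ± 0.12 and -0.29 ± 0.15 (SE), did not pass. Summed over the list, the level was 141, 140.3 and 139 CPM in deficient mice and 146, 143 and 142 CPM in wild-type mice.

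Beyond the 8 genes, 148 genes in 9 lists on centrioles, cell division, microcephaly and Hedgehog signalling were tested, and 3 were higher and 9 lower. This is 8.11% of them, beside 4.93% of all tested genes, with a median log2 fold change of -0.12. The share was not tested against the background. With DESeq2, 13 of them passed, beside 1213 genes over the whole table. The calls depended on single animals, as did those over the whole table. Without deficient mouse 1, 2 or 3, 20, 10 and 1 of the genes passed, beside 2098, 684 and 155 over the whole table. Without wild-type mouse 1, 2 or 3, 0, 0 and 1 passed, beside 44, 53 and 99 over the whole table. Of the 12 called genes, each passed in 1 to 4 of these 6 fits. Among the genes named from the lists, the annotated exons of Btrc, Ccdc78, Ccne2, Cdk5rap2, Cep131, Cep295, Gli1, Hhip, Kif20a, Odf2, Pdgfra, Prc1, Rttn and Wdfy3 overlap those of another annotated gene, so their reads are uncertain to that extent.

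Genes that lengthen and finish the new centriole included some lower ones. Of 24 tested genes 2 fell and none rose, beside 2.48% lower over all tested genes, with a list median of -0.18. Rttn, a protein of centriole elongation that binds Stil, had 5.69, 5.25 and 5.06 CPM in deficient mice and 8.01, 8.12 and 7.78 CPM in wild-type mice. The genotypes were well apart, with -0.58 ± 0.10 as log2 fold change (SE; adjusted p = 0.0228 by edgeR). Cep295, which turns a new centriole into a working centrosome, had -0.34 ± 0.08 on the same scale (SE; adjusted p = 0.0447 by edgeR), but its exons overlap antisense genes including Taf1d, and the call was lost with length and GC offsets (adjusted p = 0.0761). Cep97, a partner of the cap protein Ccp110, and Cntrob, a daughter centriole protein, had -0.25 ± 0.06 and -0.28 ± 0.08 (SE) without passing.

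Of 14 tested genes of the appendages that anchor mature centrioles, 4 fell and none rose, beside 2.48% lower over all tested genes. The list median was -0.11, and the share was not tested against the background. Odf2, needed for both kinds of appendage, fell to 75.3 ± 9.07 CPM in deficient brain, against 99.9 ± 1.63 CPM in wild-type brain (SD, n = 3 each; adjusted p = 0.0303 by edgeR). Cep164, which starts cilium formation at the distal appendage, had 17.9, 13.7 and 20.3 CPM in deficient mice and 24.4, 26.2 and 25.1 CPM in wild-type mice (adjusted p = 0.0447 by edgeR). Cntrl, encoding centriolin, and Lrrc45, a distal appendage protein, had log2 fold changes of -0.56 ± 0.13 and -0.37 ± 0.07 (SE), with adjusted p of 0.0472 and 0.0271 by edgeR. The call of Cntrl was lost with length and GC offsets (adjusted p = 0.0511) and without scaling (adjusted p = 0.0523).

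Of 21 tested genes of the pericentriolar material and satellites, 1 rose and 2 fell, with a median of -0.10. The share over all tested genes was 2.45% higher and 2.48% lower. Tubg2, the gamma-tubulin copy that is prominent in brain, rose, with 50.3, 54.6 and 49.8 CPM in deficient mice and 37.9, 38.0 and 40.5 CPM in wild-type mice (adjusted p = 0.0144 by edgeR). Cep72, a satellite protein, had 3.29, 2.10 and 2.49 CPM in deficient mice and 4.29, 5.43 and 4.68 CPM in wild-type mice (log2 fold change -0.87 ± 0.18, SE; adjusted p = 0.0364 by edgeR). Cep131, another satellite protein, had -0.25 ± 0.06 (SE, adjusted p = 0.0493 by edgeR), and its call was lost in 5 of the 9 alternatives that kept all mice. Crocc, which builds the ciliary rootlet, had -0.24 ± 0.06 (SE) without passing. Among 18 partners that recruit or control Plk4 and Stil none passed, and the median was -0.09. Those with the smallest p-values were Cep57, Ccne2, Btrc and Cdk5rap2, with log2 fold changes of -0.18, -0.29, 0.10 and -0.26. Of 9 tested genes of multiciliated cells, which make centrioles in bulk, none passed either, and the median was -0.02. The smallest p-values there were those of Ccdc78 (-0.48 ± 0.27, SE), Gmnc (-0.19 ± 0.20), Ccno (-0.13 ± 0.19) and Foxj1 (0.06 ± 0.11).

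**Figure D3:**
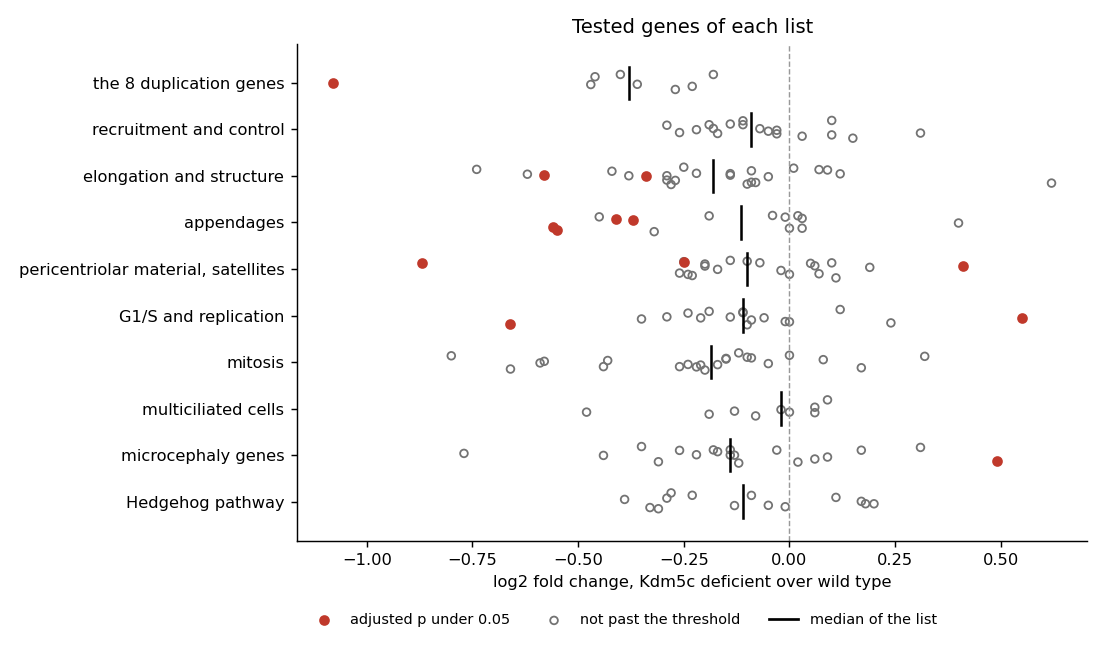
Log2 fold change (x axis, Kdm5c deficient over wild type) of every tested gene in the set of 8 and in 9 further lists (rows); filled points had an adjusted p under 0.05 by edgeR, open points did not, and black bars are list medians. The median of the 8 genes is -0.38, and those of the other lists lie between -0.18 and -0.02.

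Markers of brain cell types were called in both directions, beside 2.45% higher and 2.48% lower over all tested genes. All markers listed were above 0 in every mouse. Summed levels of oligodendrocyte markers were 6841, 5572 and 5394 CPM in deficient mice and 7620.2, 7916 and 6998 CPM in wild-type mice. Among newborn neuron markers 1 of 8 was called, Sox11, which rose to 25.3 ± 3.30 CPM in deficient brain, against 17.8 ± 0.683 CPM in wild-type brain (SD, n = 3 each; adjusted p = 0.0273 by edgeR). Their summed level was 94.3, 109.7 and 136 CPM in deficient mice and 99.4, 96.7 and 103 CPM in wild-type mice. Oligodendrocyte precursor markers, from the most numerous dividing cells of adult brain, summed to 331, 316 and 310.4 CPM in deficient mice and 306, 296 and 301 CPM in wild-type mice, with Pdgfra called higher (log2 fold change 0.27 ± 0.05, SE; adjusted p = 0.0241 by edgeR; 1 of 5 tested).

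Ependymal markers, from ciliated cells that keep many centrioles, summed to 30.3, 28.9 and 24.3 CPM in deficient mice and 25.6, 21.9 and 21.0 CPM in wild-type mice, with none of 6 called. Gja1 among 6 astrocyte markers was called higher (adjusted p = 0.0311 by edgeR), and Hbb-bt among 5 red cell markers was called lower (adjusted p = 0.0266 by edgeR). Astrocyte markers summed to 4059, 4305 and 4522 CPM in deficient mice and 3693, 3702 and 3966 CPM in wild-type mice, and red cell markers to 63.3, 74.2 and 65.5 CPM in deficient mice and 78.0, 80.0 and 73.3 CPM in wild-type mice. None of the 6 cerebellar granule, 6 neuron, 6 microglia or 6 endothelial markers was called. The summed levels of these lists ran from 108 to 784 CPM in deficient and 846 to 1005 CPM in wild-type mice for cerebellar granule cells, and from 6805 to 7702 CPM in deficient and 6583 to 7066 CPM in wild-type mice for neurons. For microglia they ran from 170.3 to 192 CPM in deficient and 155 to 164 CPM in wild-type mice, and for endothelium from 159.7 to 192 CPM in deficient and 154 to 168 CPM in wild-type mice. The part of these cell type levels in the Stil difference was not tested. The value without deficient mouse 2 given above is no such test. Deficient mice 1 and 3, at 784 and 594 CPM of cerebellar granule markers, also lay below every wild-type mouse.

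**Figure D4:**
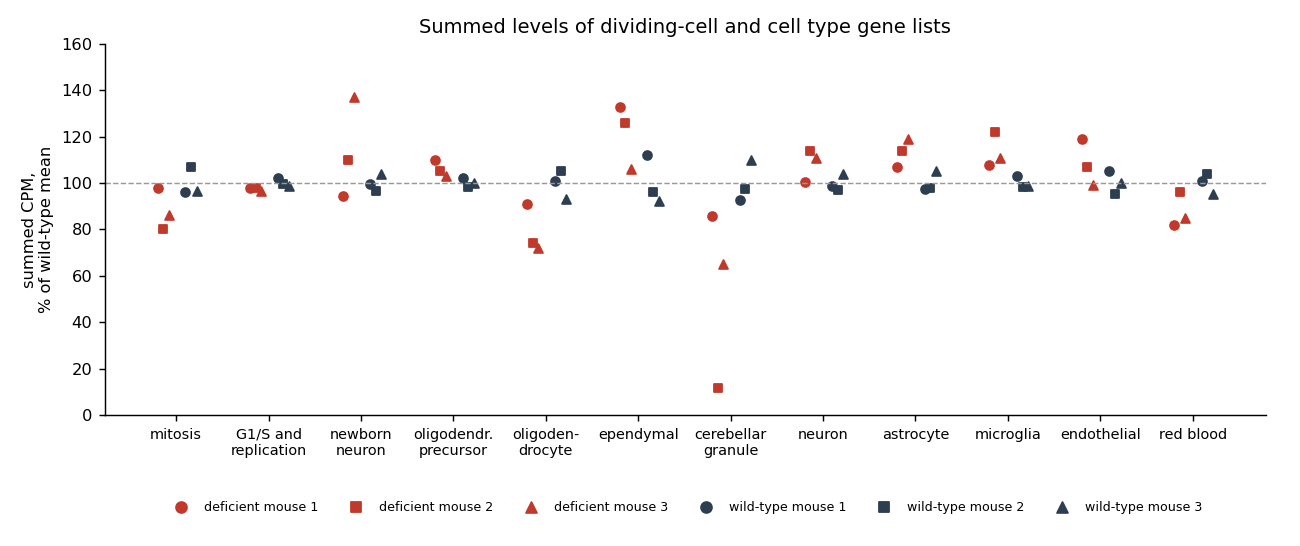
Summed CPM of mitosis, replication and cell type marker lists in each mouse (x axis), as a percentage of the wild-type mean (y axis, dashed line at 100%), for Kdm5c deficient mice (red, left in each pair) and wild-type mice (dark, right). Deficient mouse 2 is at 11.8% for cerebellar granule markers and at 80.3% for mitosis genes, while the deficient mice are between 96.5% and 97.9% for replication genes.

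The genes on either side of Stil had log2 fold changes near 0. Cmpk1, a nucleotide kinase gene 12.9 kb before Stil, had 81.6, 93.4 and 85.5 CPM in deficient mice and 84.6, 83.9 and 86.2 CPM in wild-type mice (log2 fold change 0.03 ± 0.06, SE; adjusted p = 0.764 by edgeR). Tal1, a blood and endothelial transcription factor gene 13.2 kb after Stil that is fused to STIL by deletions in human T cell leukaemia, had 5.83, 6.00 and 4.24 CPM in deficient mice and 5.14, 5.63 and 6.30 CPM in wild-type mice (-0.08 ± 0.16, SE; adjusted p = 0.776 by edgeR). Both overlapped between the genotypes. Further after Stil, Pdzk1ip1, Cyp4x1, Cyp4x1os and Cyp4b1 had log2 fold changes of 0.16, 0.03, -0.20 and 0.87, none past the threshold, and Cyp4x1 and Cyp4x1os share exon positions on opposite strands. The direction of Cmpk1, Tal1, Cyp4x1 and Cyp4x1os turned when a single mouse was left out.

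Before Stil, Foxd2, a forkhead transcription factor gene at 91.3 kb, had 19, 13 and 14 reads in deficient mice and 6, 3 and 8 reads in wild-type mice, which at 1.45 ± 0.38 on the log2 scale (SE) did not pass (adjusted p = 0.0644 by edgeR). Its direction was opposite to that of Stil and its genotypes did not overlap. Trabd2b, which encodes a protease that acts on Wnt proteins, lies 385 kb away. It was the only one of the 10 neighbours to pass, beside 4.93% of all tested genes. It fell to 7.30 ± 0.680 CPM in deficient brain, against 10.3 ± 0.966 CPM in wild-type brain (SD, n = 3 each; log2 fold change -0.50 ± 0.11, SE; adjusted p = 0.0447 by edgeR). That call held without deficient mouse 1 (adjusted p under the threshold in 1 of 6 fits) and was lost without any other mouse, at log2 fold changes of -0.57 to -0.43. Agbl4 and Spata6, 3336 and 3171 kb away, had 0.28 and -0.13 without passing.

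**Figure D5:**
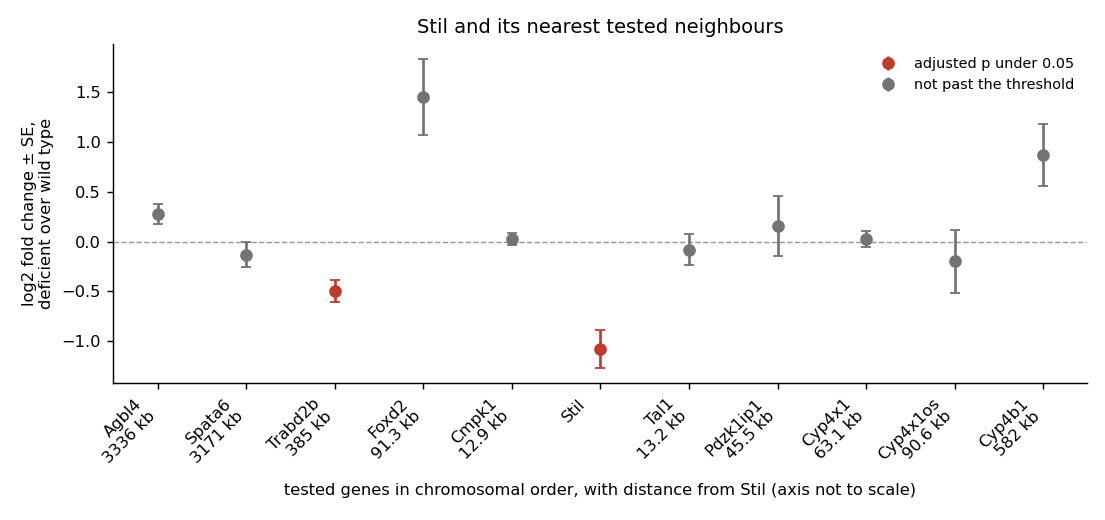
Log2 fold change with SE (y axis, Kdm5c deficient over wild type) of Stil and its 10 nearest tested neighbours in chromosomal order, labelled with the distance from Stil in kb (x axis not to scale). Red points had an adjusted p under 0.05 by edgeR; the direct neighbours Cmpk1 and Tal1 lie at 0.03 and -0.08, beside Stil at -1.08.

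The genes whose level over the 6 mice was most like that of Stil were Zfyve28, Atp11a, Gm16576, Ktn1 and Usp24. Their Pearson r with Stil on log2 CPM ran from 0.9908 to 0.9975, out of 13960 genes compared, each averaging 1 CPM or more. The 6 points fall into 2 genotypes that differ in Stil, and r is given with no p. Gm16576 had 0.846, 0.839 and 0.967 CPM in deficient mice and 1.42, 1.66 and 1.66 CPM in wild-type mice. The difference of the others was smaller, with log2 fold changes from -0.34 for Atp11a to -0.12 for Ktn1. Within the set the likeness to Stil was highest for Plk4 (r = 0.90) and Cep192 (r = 0.89), followed by Cep135 (0.85) and Cep152 (0.84). It was lowest for Cep63 (0.70), Cenpj (0.69) and Sass6 (0.68). As a scale for these values, 693 of the genes compared had a higher r with Stil than Plk4 did.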

How the data were processed

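RNA was sequenced from the brain of 6 mice, 3 for each genotype, with TruSeq libraries per the labels' protocols. The deposited table holds a raw count per gene symbol and mouse, per the file headers, not normalized by the authors. Further deposited columns, used only where named, are the authors' mean signal over mice, their log2 fold change and its error, a test score and a p-value. The submitters' processing notes name DESeq2 and GRCm38. The sources used here give no aligner, annotation or strandedness, so reads of overlapping genes cannot be told apart.

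Genotypes were compared on the counts with edgeR 4.0.16 under R 4.3.3 (default filter with a minimum count of 10 and a minimum total of 15, scaling by trimmed mean of M-values, quasi-likelihood test on genotype, Benjamini-Hochberg adjustment over 15127 genes, threshold 0.05) and checked on simulated counts. Positions, lengths and overlaps came from GENCODE M21 (GRCm38), and promoter windows from RefSeq (GRCm38.p6). CPM are relative to the scaled total. Apart from the authors' values, the SE of a log2 fold change is its size divided by the square root of edgeR's F statistic. Length and GC offsets were fitted with mgcv for the 95.5% of tested genes that have both values. Alternatives used limma 3.58.1, DESeq2 1.42.0, other scalings and filters, the replicate number as a block and leaving out each mouse.

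The genes, lists and motifs were chosen with earlier results of these data known. The text names the 8 genes, Kdm5c, the genes of each list that pass and up to 4 with the smallest p-values, 5 tested neighbours on each side of Stil and the 5 genes most correlated with it. A gene that this rule takes is not reported here.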

Additional observations from a re-analysis of the deposited data

How the results depend on the processing

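Stil kept its direction in every alternative, with log2 fold changes of -1.19 to -1.01 when a mouse was left out and -1.10 to -1.04 otherwise, and the median of the other 7 genes stayed between -0.40 and -0.30. None of the values of the 7 genes rose above 0 in any alternative. The number of genes called over the whole table was 746, against 1213 with DESeq2 and 1121 with no low-count filter, and 44 to 2098 when a mouse was left out. Calls among the pathway genes numbered 12, against 0 to 20 when a mouse was left out, and calls among the neighbours of Stil 1, against 0 to 2. When a mouse was left out, Cmpk1 ranged from -0.02 to 0.08, Cyp4x1 from -0.02 to 0.11, Cyp4x1os from -0.48 to 0.10 and Tal1 from -0.18 to 0.06, and none of the 4 passed in any fit. The cause of these shifts was not tested. With the replicate number as a block, 58 genes were called, 0 of the pathway genes and 0 of the neighbours, and Stil, at -1.08, no longer passed. The deviations of mice with the same number correlated at -0.0614, -0.0492 and 0.142, and those of mice with different numbers at -0.113 to 0.15. With 3 mice per genotype these values cannot show whether mice of the same number share a litter or day. At 23 to 54 reads of Stil a mouse, counting error limits the precision of its ratio. With the union of exons as the length, the wild-type level was 2.74 RPKM for Cep63, against 4.49, 1.16 for Cep192, against 1.80, 0.852 for Plk4, against 1.68, and 0.386 for Stil, against 0.417.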

Other observations

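Genes linked to Stil by disease or by signalling were also measured. Of 19 tested genes of primary microcephaly outside the set of 8, 1 rose and none fell, beside 4.93% called over all tested genes. Their median log2 fold change was -0.14. The riser was Mfsd2a, a lipid transporter of the blood-brain barrier, with 31.7 ± 3.84 CPM in deficient and 22.6 ± 2.14 CPM in wild-type brain (SD, n = 3 each; log2 fold change 0.49 ± 0.10, SE; adjusted p = 0.0365 by edgeR). Its call held without deficient mouse 1 or 2 and was lost without deficient mouse 3 (adjusted p = 0.100) or without wild-type mouse 1, 2 or 3 (adjusted p = 0.131, 0.103 and 0.109). Ncapd3, a condensin subunit gene, had -0.31 ± 0.08 (SE), and Cit, a kinase of cytokinesis, and Wdfy3, an autophagy adaptor, had -0.14 ± 0.05 and -0.18 ± 0.06 (SE), all without passing.

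Of 14 tested genes of the Hedgehog pathway none passed, beside 4.93% of all tested genes, and the median was -0.11. The smallest p-values belonged to the co-receptor gene Boc (-0.39 ± 0.15, SE), the inhibitor gene Hhip (-0.28 ± 0.12), the transcription factor gene Gli1 (-0.33 ± 0.15) and the receptor gene Ptch1 (-0.23 ± 0.11), with adjusted p of 0.145 to 0.216 by edgeR. The summed level of the list was 353, 276 and 329 CPM in deficient mice and 342, 354 and 368 CPM in wild-type mice, and its lowest mouse was deficient mouse 2, the animal with few cerebellar markers. Without deficient mouse 1, 3 genes of this list passed, but 2098 genes passed over the whole table in that fit, against 746 with all mice.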
